A study of Mus musculus with 24 samples.

Results

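The gonadotropin and steroid hormone receptors described here are 7 genes of the 32040 listed in the deposited tables of the study, taken by symbol. Fshr and Lhcgr encode the receptors of follicle-stimulating hormone (FSH) and luteinising hormone (LH). Esr1, Esr2 and Pgr encode oestrogen receptors alpha and beta and the progesterone receptor. Nr3c1 and Nr3c2 encode the glucocorticoid and mineralocorticoid receptors. All 7 passed the filter on low counts.

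Gonadotropin receptors sit in the cell membrane, couple to the stimulatory G protein and raise cyclic AMP, which activates protein kinase A. Steroid receptors are transcription factors held by chaperones until a steroid enters the cell and binds them. In the adult gonad FSH acts on Sertoli and granulosa cells, whereas LH acts on Leydig cells, theca cells and maturing granulosa cells.

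RNA was sequenced from supporting cells sorted from mouse fetal gonads at 4 stages from E11.5 to E15.5 (E for embryonic day, with E12.5 and E13.5 between). The XX libraries are pre-granulosa cells, the precursors of ovarian granulosa cells, from the Tg(Enh8-mCherry) transgenic line. The XY libraries are Sertoli cells, which nurse germ cells in the testis, from the SOX9-IRES-GFP line, in which GFP follows Sox9. There were 3 libraries at each stage for each sex, giving 8 groups and 24 libraries, and no treatment is named. The cells of both sexes carried a reporter, and sex, mouse line and fluorophore changed together, so their parts in any XX minus XY difference cannot be told apart. Nothing in the labels says whether replicates came from separate litters, so p-values measure the spread between these libraries, which may be technical. XX E13.5 replicate 1 is placed at E12.5 in another label field, and the stage of its title was used.

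Total counts per library ran from 11275251 to 37256881, and 3 counts, taken as the floor of detection, equalled 0.0774 to 0.26 CPM (the count scaled to a common library total). The 10 Sertoli markers summed to between 1549 and 9757 CPM in XY libraries and to at most 346.7 CPM in XX libraries. The 10 pre-granulosa markers summed to between 613.2 and 1761 CPM in XX and to at most 159.1 CPM in XY. Red blood cell markers reached 3228 to 25875 CPM in the XX E11.5 libraries, against 10.5 to 22.6 CPM in XY E11.5, and their part in the results was not tested. Immune cell markers were called higher in XX at all 4 stages, 6 of 6 each time (21.4% to 34.9% of all genes were). They summed to 95.8 to 278.6 CPM in XX against 0.38 to 1.64 CPM in XY at E11.5, and to 23.2 to 27.4 against 0.443 to 0.842 CPM at E15.5, and their part was not tested either. Of 5 surface epithelium markers, 1 was called higher in XX (21.4% of all genes were) and 1 in XY (20.6%) at E11.5. The counts were 4 and 1 at E12.5 (30.5% and 31.5%), 4 and 0 at E13.5 (32.8% and 33.3%) and 4 and 0 at E15.5 (34.9% and 34.4%). In XX their sum was 134.8 to 214.9 CPM at E11.5 and 658.3 to 688.0 CPM at E15.5. In XY it was 97.2 to 151 and 196.5 to 212.6 CPM. Their part in the receptor levels was not tested. XX E13.5 replicate 1, whose labels give 2 stages, had a surface epithelium sum of 493.6 CPM. Its E13.5 partners had 500.1 and 499.9 CPM, and the XX E12.5 libraries had 199.2 to 293.7 CPM. Fewer cells of a type and less RNA per cell cannot be told apart in such bulk samples.

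The number of receptors that differed between the sexes was lowest at E11.5. There, 3 of the 7 differed between XX and XY by edgeR's quasi-likelihood test with Benjamini-Hochberg adjustment over all genes (42.0% of all genes tested did). Esr1 was higher in XX (21.4% of all genes were), and Esr2 and Nr3c2 were higher in XY (20.6%). At E12.5 all 7 differed (62.1% of all genes), with 5 higher in XX (30.5%) and Fshr and Nr3c2 higher in XY (31.5%). At E13.5, 6 differed (66.1% of all genes), all but Nr3c2, with 5 higher in XX (32.8%) and Fshr higher in XY (33.3%). At E15.5, 6 again differed (69.4% of all genes). Lhcgr, Esr1, Pgr and Nr3c1 were higher in XX there (34.9%), and Fshr and Esr2 were higher in XY (34.4%). These shares of all genes are themselves large, so the counts alone do not set the receptors apart.

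**Figure D1:**
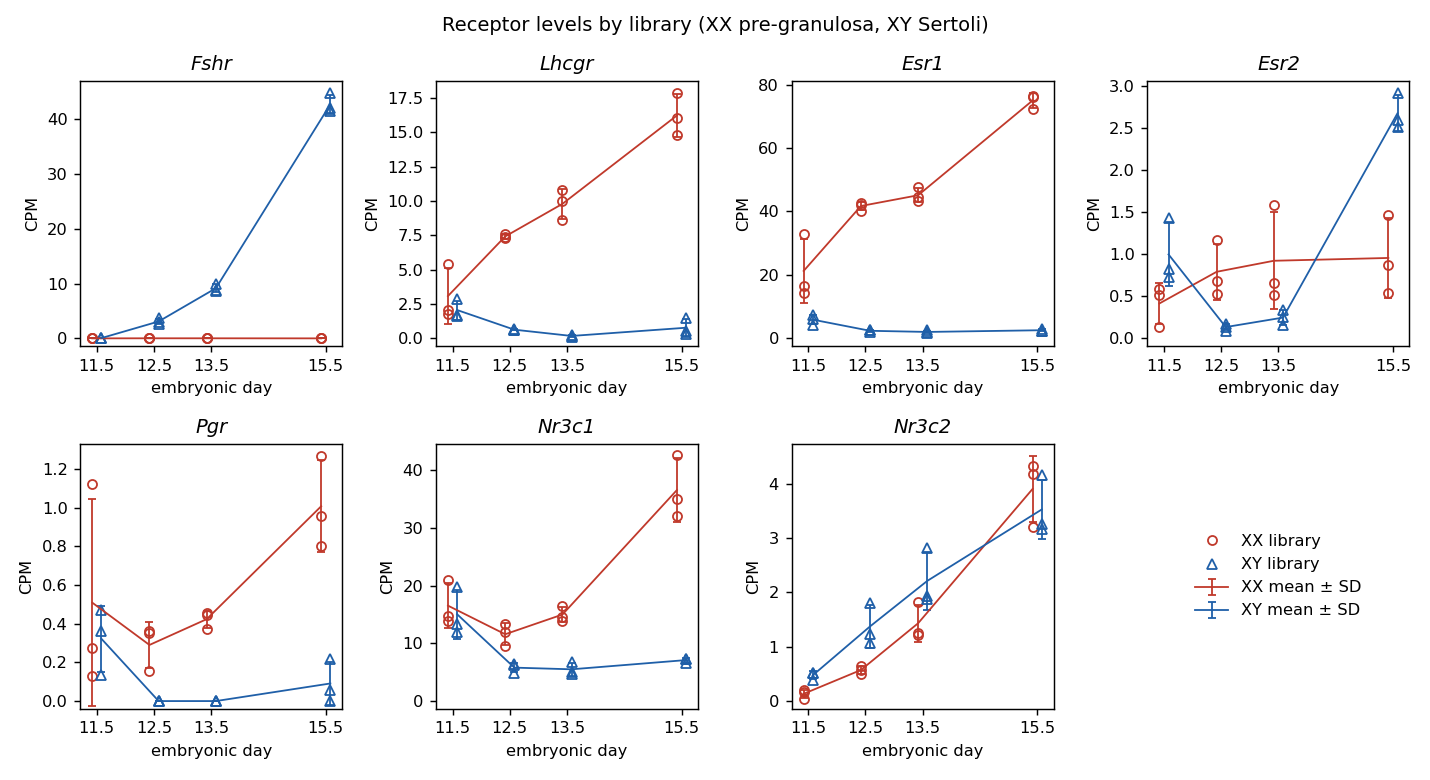
Level of each receptor in CPM (vertical axes, separate scales) by embryonic day, with 1 point per library and lines and bars for the mean ± SD of 3 libraries; XX points are drawn slightly left and XY points slightly right of each day. Fshr climbs in XY to 42.7 CPM while XX stays at the axis, Lhcgr and Esr1 climb in XX, and the Esr2 lines cross between E13.5 and E15.5.

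Fshr was a gene of the XY cells. It lies on the minus strand of chromosome 17 (chr17:88984952-89200675, mm10, GENCODE M21, 10 exons in its longest coding transcript), next to Lhcgr (chr17:88716481-88791990, minus strand, 11 exons). The gap between them is 193.0 kb and holds 1 annotated processed pseudogene and no protein-coding gene. The 250 bases upstream of each RefSeq start (GRCm38.p6, minus strand, 5′ to 3′) are shown because these neighbours took opposite courses. In the Fshr sequence (chr17:89200676-89200925), capitals mark the E box CACGTG, a motif through which the upstream stimulatory factors are known to act on this promoter. In the Lhcgr sequence (chr17:88792015-88792264), capitals mark GGGCGG, the GC box bound by Sp1-family factors, which was chosen after the sequence was seen.
Fshr: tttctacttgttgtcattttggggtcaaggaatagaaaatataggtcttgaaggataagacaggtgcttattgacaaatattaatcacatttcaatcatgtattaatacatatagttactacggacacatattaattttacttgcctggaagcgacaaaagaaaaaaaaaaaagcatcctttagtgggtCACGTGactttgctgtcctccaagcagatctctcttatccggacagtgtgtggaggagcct
Lhcgr: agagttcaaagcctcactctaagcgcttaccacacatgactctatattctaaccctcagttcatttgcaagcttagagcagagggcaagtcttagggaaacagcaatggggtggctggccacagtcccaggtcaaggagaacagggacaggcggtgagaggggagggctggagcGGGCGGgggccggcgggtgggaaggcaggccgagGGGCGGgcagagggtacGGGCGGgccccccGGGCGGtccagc

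The Fshr stretch holds the E box once, from 61 to 56 bases before the start, and has a GC content of 36.8%. The Lhcgr stretch holds the GC box 4 times, between 76 and 7 bases before the start, and has a GC content of 63.2%. Both motifs were searched on both strands, and CACGTG reads the same on each. Of 32851 upstream stretches of this length, 6.02% held CACGTG and 32.7% held GGGCGG, and the median GC content was 52.4%. Sequences were found for 6 of the 7 receptors. Esr2 also had a CACGTG (1 match), while Pgr had 1 and Nr3c2 had 3 matches to GGGCGG. A match is a description of these letters and not a site of binding.

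In XY libraries Fshr was at 0.0543, 0.0258 and 0.0783 CPM at E11.5, from 2, 1 and 3 counts. It was at 3.64, 2.63 and 2.97 CPM at E12.5 and at 8.68, 9.92 and 8.83 CPM at E13.5. At E15.5 it was at 42.0, 41.4 and 44.7 CPM. Each XY stage stood above the one before with no overlap, and the XY E15.5 libraries were the highest of all 24. XX libraries held 1 Fshr count at E12.5 (replicate 3), 1 at E13.5 (replicate 2) and none in the other 10 libraries.

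The largest step of the XY rise, on the log2 scale, came first. From E11.5 to E12.5, Fshr in XY went up with a pooled ratio of 58.2 (exact 95% interval 26.3 to 161, counting error only) and a log2 change of 5.72 (SE 0.335, edgeR adjusted p = 2.76e-10). It then rose 2.97-fold to E13.5 (log2 1.57, SE 0.209, edgeR adjusted p = 6.51e-05) and 4.67-fold to E15.5 (log2 2.22, SE 0.202, edgeR adjusted p = 7.81e-07). Between the sexes, Fshr at E12.5 was higher in XY with a pooled ratio of 216.3 (interval 38.4 to 8580), and at E13.5 with a ratio of 466.4 (interval 83.4 to 18500). At E15.5 it was at least 215.5-fold higher in XY, taking 3 counts per library as the limit in XX (edgeR adjusted p = 1.76e-13). At E11.5 both sexes were at or under that limit, so no fold is given. Whether the sex difference in Fshr changed with stage depended on the tool. The interaction had an edgeR adjusted p of 0.146, a DESeq2 adjusted p of 0.00885 and limma adjusted p of 1.66e-14 and 1.76e-11 on log2(TPM + 1) and log2(TPM + 0.1).

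Lhcgr took the opposite course. XX libraries held 2.09, 5.41 and 1.75 CPM at E11.5 and 7.30, 7.37 and 7.60 CPM at E12.5. They held 8.59, 10.004 and 10.8 CPM at E13.5 and 16.1, 17.9 and 14.8 CPM at E15.5. The XX stages from E12.5 on did not overlap and climbed in order, while XX E11.5 overlapped XY E11.5 and replicate 2 stood above its partners. In XY, Lhcgr was at 1.69, 2.87 and 1.65 CPM at E11.5, then at 0.700, 0.604 and 0.594 CPM at E12.5. It was at 0.111, 0.239 and 0.179 CPM at E13.5 and at 0.304, 1.52 and 0.506 CPM at E15.5.

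XX and XY did not overlap in Lhcgr from E12.5 on. Lhcgr was 11.7-fold higher in XX at E12.5 (log2 3.54, SE 0.428, edgeR adjusted p = 3.68e-07) and 55.6-fold higher at E13.5 (log2 5.71, SE 0.506, edgeR adjusted p = 2.91e-09). At E15.5 it was 20.9-fold higher (log2 4.41, SE 0.435, edgeR adjusted p = 1.18e-08). Without XY E15.5 replicate 2 the XY mean was 0.405 instead of 0.775 CPM, and the log2 difference was 5.42. At E11.5 the log2 difference was 0.60 (edgeR adjusted p = 0.209), and it was -0.11 without XX E11.5 replicate 2.

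Within XX, the step from E11.5 to E12.5 was a rise of 1.25 in log2 (SE 0.368, edgeR adjusted p = 0.0127). It missed the threshold without XX E11.5 replicate 1 (1.03, adjusted p = 0.0589) or replicate 3 (0.98, adjusted p = 0.0595), as well as in a fit restricted to the 6 libraries compared (1.23, adjusted p = 0.119). Without replicate 2 it was 1.94 (edgeR adjusted p = 0.000134), and the XX E11.5 mean fell from 3.08 to 1.92 CPM. That library also held the highest sum of 4 adrenal-like markers, 60.8 CPM against 15.501 and 14.2 CPM in its partners. Its pre-granulosa sum was the highest too, 1313 CPM against 754.9 and 613.2 CPM. Its sums were the lowest for red blood cell markers (3228 against 10387 and 25875 CPM), immune markers (95.8 against 173.1 and 278.6 CPM) and interstitial markers (282.5 against 660.2 and 2126 CPM). The part of this cell makeup in its Lhcgr level was not tested. The later XX steps had log2 differences of 0.40 (edgeR adjusted p = 0.42) and 0.73 (edgeR adjusted p = 0.134). With the E11.5 libraries left out of the fit, the last was called (0.69, edgeR adjusted p = 0.0184).

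Within XY, Lhcgr fell by 1.70 in log2 from E11.5 to E12.5 (SE 0.43, edgeR adjusted p = 0.00233). The further fall to E13.5 (log2 -1.77, SE 0.596, edgeR adjusted p = 0.0456) rested on 2 to 15 counts per library. It missed the threshold without any 1 of the 6 libraries compared, with adjusted p from 0.0861 to 0.137. Lhcgr then rose by 2.03 in log2 to E15.5 (SE 0.594, edgeR adjusted p = 0.0172), with XY E15.5 replicate 2 at 27 counts against 7 and 8. That rise was 1.06 (edgeR adjusted p = 0.274) without replicate 2, and it was also lost without XY E13.5 replicate 1 (adjusted p = 0.0618) or replicate 3 (adjusted p = 0.061). At the same XY step 5 of 6 interstitial and 3 of 6 steroidogenic markers were called higher, and their part in the rise was not tested.

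Lhcgr is a textbook gene of fetal Leydig cells, so markers of steroid-making cells were set beside it. In XY E15.5, replicate 2 had the highest Insl3 (5.22 CPM against 1.95 and 2.22), the highest Cyp11a1 (31.2 against 12.02 and 14.9) and the highest Cyp17a1 (14.7 against 4.77 and 7.28). The 6 steroidogenic markers together summed to 137.7 CPM there and to 100.7 and 112.5 CPM in its partners, and their part in the Lhcgr value was not tested. In XX E15.5, where Lhcgr was highest, the same sum ran from 342.4 to 378.1 CPM, most of it Hsd3b1 (265.2 to 295.3 CPM), which converts steroid precursors. The Leydig cell hormone gene Insl3 held 0, 0 and 1 counts in those libraries, and Cyp11a1, which opens steroid synthesis, held 12, 12 and 4. The other markers of the list were not low in XX E15.5. Cyp17a1, which leads on to androgens, stood at 13.3, 12.1 and 8.24 CPM, above XY E15.5 replicates 1 and 3, Star at 11.3 to 14.6 CPM and Fdx1 at 49.6 to 58.9 CPM. The 6 interstitial markers summed to 216.6 to 371.8 CPM in XX E15.5 and to 92.4 to 120.5 CPM in XY E15.5, and their part in the sex difference was not tested.

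**Figure D2:**
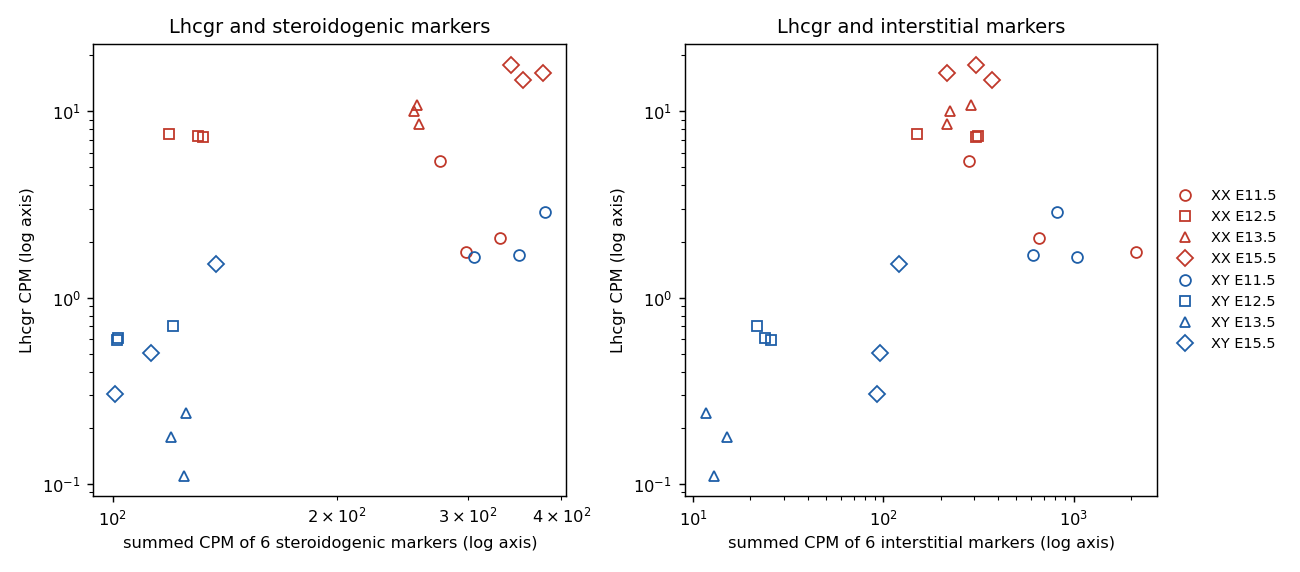
Lhcgr level (CPM, log axis) against the summed CPM of 6 steroidogenic markers (left) and of 6 interstitial markers (right, both log axes), with 1 point per library. XX E15.5 libraries have the highest Lhcgr, at steroidogenic sums of 342.4 to 378.1 CPM that are mostly Hsd3b1. XY E11.5 libraries have Lhcgr at 1.65 to 2.87 CPM and sums of 305.9 to 380.2 CPM with another makeup. Cyp11a1 is at 114.6 to 151.1 CPM in XY E11.5 and at 0.178 to 1.04 CPM in XX E15.5.

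Transcripts of the hormone-specific subunits were few or absent in these cells, and the hormones themselves were not measured. Fshb, which encodes the subunit specific to FSH, had no count in any library. Lhb and Tshb, its counterparts in LH and thyrotropin, did not pass the filter, and their group means were at most 0.254 and 0.183 CPM. Cga, the subunit shared by all these hormones, was at 17.3 ± 2.89 CPM (SD, n = 3) in XY E11.5 and at 6.10 ± 3.40 CPM in XX E11.5. By E15.5 XX held 1.55 ± 0.315 CPM, and no XY library had a count.

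Downstream of the gonadotropin receptors, 19 genes of the cyclic AMP route were tested. At E11.5 XX was higher for 7 (21.4% of all genes were) and XY for 3 (20.6%), with a median log2 difference of 0.118 (0.0184 for all genes). The counts were 9 and 5 at E12.5 (30.5% and 31.5% of all genes) and 10 and 6 at E13.5 (32.8% and 33.3%). At E15.5, 11 were higher in XX (34.9% of all genes were), 5 in XY (34.4%) and 3 were not called. The median there was 0.319 (0.0456 for all genes). Prkaca, the catalytic subunit of protein kinase A, reached 154.2 ± 23.0 CPM in XX E15.5 against 24.5 ± 1.64 CPM in XY E15.5 (log2 2.65, SE 0.383, edgeR adjusted p = 3.81e-06). Rapgef3 (EPAC1), a cyclic AMP sensor beside protein kinase A, was at 10.7 ± 0.877 and 0.971 ± 0.483 CPM (log2 3.50, edgeR adjusted p = 6.08e-06). The adenylyl cyclase Adcy9 went the other way, with 5.44 ± 0.838 CPM in XX against 22.5 ± 0.620 CPM in XY (log2 -2.06, edgeR adjusted p = 2.34e-07). Arrb1, an arrestin that uncouples such receptors, was also higher in XY at E15.5 (log2 -1.23, edgeR adjusted p = 0.000632).

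Of 8 tested genes known to respond to FSH, 5 were higher in XY at E15.5 (34.4% of all genes were), Abcb1a was higher in XX, and 2 were not called, with a median log2 difference of -1.27. XY was higher for 2 (20.6% of all genes were) and XX for 1 (21.4%) at E11.5. The counts were 4 and 2 at E12.5 (31.5% and 30.5% of all genes) and 3 and 3 at E13.5 (33.3% and 32.8%). The medians at these stages were -0.373, -0.919 and -0.767. Inha, the inhibin alpha subunit, in XY rose from 83.5 ± 4.91 CPM at E11.5 to 1119 ± 70.1 CPM at E15.5, while XX stood at 195.3 ± 30.7 and 167.5 ± 15.8 CPM. Hsd17b1, which reduces oestrone to oestradiol, was at 241.9 ± 8.52 CPM in XY E15.5 and 0.669 ± 0.0607 CPM in XX (log2 -8.48, SE 0.227, edgeR adjusted p = 2.24e-17). Ccnd2, a cyclin, rose in XY from 400.5 ± 15.98 CPM at E13.5 to 1278 ± 46.2 CPM at E15.5 (log2 1.67, edgeR adjusted p = 3.18e-10). Cyp19a1, the aromatase that makes oestrogens, did not pass the filter, and its group means were at most 0.292 CPM. No hormone was added or measured here, so these counts describe levels and not responses.

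Esr1 was higher in XX at every stage. XX libraries held 16.4, 32.9 and 14.5 CPM at E11.5 and 40.3, 42.2 and 42.7 CPM at E12.5. They held 43.3, 44.5 and 47.6 CPM at E13.5 and 72.3, 76.6 and 76.1 CPM at E15.5. Every XX library stood above every XY library, and the XX stages did not overlap. XY libraries held 7.39, 5.99 and 4.33 CPM at E11.5 and between 1.59 and 2.91 CPM at the later stages, which overlapped one another.

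The sex difference in Esr1 was 3.60-fold at E11.5 (log2 1.86, SE 0.229, edgeR adjusted p = 1.61e-06) and 17.5-fold at E12.5 (log2 4.12, SE 0.26, edgeR adjusted p = 1.59e-11). It was 22.2-fold at E13.5 and 29.2-fold at E15.5 (log2 4.49 and 4.87), and the change of the difference with stage passed the test (edgeR adjusted p = 4.74e-07). Both sexes moved, in opposite directions. In XX, Esr1 rose 1.96-fold from E11.5 to E12.5 (edgeR adjusted p = 0.00205) and 1.66-fold from E13.5 to E15.5 (edgeR adjusted p = 0.0162), whereas in XY it fell 2.47-fold from E11.5 to E12.5 (edgeR adjusted p = 0.000218). XX E11.5 replicate 2 was again the high library, and the mean there was 15.4 CPM without it against 21.3 CPM with it. Its marker sums, given with Lhcgr, also set it apart, and their part in its Esr1 level was not tested. The last XX rise missed the threshold without XX E13.5 replicate 1 (adjusted p = 0.0609), XX E13.5 replicate 2 (0.0592) or XX E15.5 replicate 3 (0.0514), at log2 values of 0.71, 0.71 and 0.72. The first XX rise was not called when only the 6 libraries compared were fitted (log2 0.94, edgeR adjusted p = 0.0907).

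**Figure D3:**
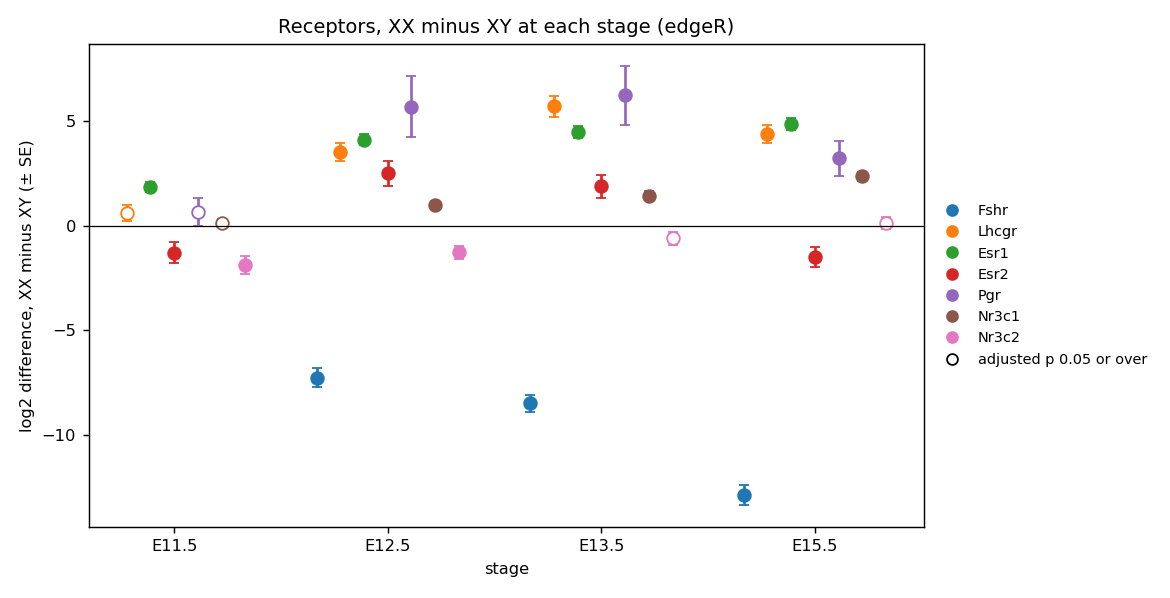
Log2 difference XX minus XY of each receptor at each stage (vertical axis, edgeR estimate ± SE, 3 against 3 libraries), with open points where the adjusted p was 0.05 or over; Fshr at E11.5 is not drawn because both groups were at or under the floor. Esr1 stays above 0 throughout and reaches 4.87, Fshr lies below 0 from E12.5, and Esr2 starts and ends below 0.

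Esr2 changed sides with stage. In XY it was at 0.734, 0.826 and 1.44 CPM at E11.5, 0.0934, 0.173 and 0.137 CPM at E12.5, and 0.332, 0.159 and 0.250 CPM at E13.5. It then stood at 2.52, 2.92 and 2.59 CPM at E15.5, above every other library of either sex. XX libraries ran from 0.138 to 1.59 CPM over all stages with overlap between neighbouring stages, and no XX step passed the test.

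In XY, Esr2 fell by 2.84 in log2 from E11.5 to E12.5 (SE 0.578, edgeR adjusted p = 0.000327) and rose 10.8-fold from E13.5 to E15.5 (log2 3.44, SE 0.529, edgeR adjusted p = 7.33e-05). All 6 germ cell markers rose at that last XY step too, from a sum of 12.3 to 16.4 CPM to one of 49.9 to 82.6 CPM. So did 5 of 6 interstitial markers, with the sum of the list going from 11.7 to 15.0 CPM to 92.4 to 120.5 CPM. The part of such cells in the Esr2 rise was not tested. In XX E15.5, where Esr2 was lower, germ cell markers summed to 45.4 to 68.4 CPM and interstitial markers to 216.6 to 371.8 CPM. The XX minus XY difference was 2.51 in log2 at E12.5 (SE 0.595, edgeR adjusted p = 0.000994), 1.88 at E13.5 (SE 0.555, edgeR adjusted p = 0.00536) and -1.502 at E15.5 (SE 0.474, edgeR adjusted p = 0.00786). Its change with stage passed the test (edgeR adjusted p = 6.99e-05). The E15.5 call missed the threshold without XX E15.5 replicate 3 (-1.18, adjusted p = 0.056), and the E13.5 call without XX E13.5 replicate 3 (1.29, adjusted p = 0.0616). At E11.5 Esr2 was higher in XY by a narrow margin (log2 -1.29, edgeR adjusted p = 0.0465) that 11 of 13 other settings did not keep, among them the replicate block (adjusted p = 0.0569). XX E11.5 replicate 2 had 3 counts, and without it the difference was -0.85 (edgeR adjusted p = 0.2), while without XY E11.5 replicate 3 it was -0.92 (edgeR adjusted p = 0.19). Esr2 lies on the minus strand at chr12:76120419-76177259 and overlaps a pseudogene on the same strand, so its reads could be shared.

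Pgr was low throughout and was seen mainly in XX. XX libraries held 1.12, 0.275 and 0.130 CPM at E11.5, 0.155, 0.364 and 0.352 CPM at E12.5, then 0.444, 0.374 and 0.453 CPM at E13.5, and 0.955, 1.27 and 0.802 CPM at E15.5. XY libraries held 0.136, 0.361 and 0.470 CPM at E11.5, no count in any of the 6 libraries of E12.5 and E13.5, and 5, 1 and 0 counts at E15.5. From E12.5 on the sexes did not overlap.

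A count of 0 in those 6 XY libraries allows up to 0.107 to 0.166 CPM. Pgr was at least 2.14-fold higher in XX at E12.5 (edgeR adjusted p = 0.00286) and at least 3.24-fold higher at E13.5 (edgeR adjusted p = 0.000874), against 3 counts per library. At E15.5 it was higher in XX again (log2 3.23, SE 0.824, edgeR adjusted p = 0.00214), against an XY mean of 0.091 CPM from 6 counts in all, which is under the floor. Without XY E15.5 replicate 1 that mean was 0.028 CPM and the log2 difference 4.82. In XY it fell at least 2.38-fold from E11.5 to E12.5 (edgeR adjusted p = 0.00221). No XX step passed the test, and the XX E15.5 minus E13.5 difference was 1.25 in log2 (edgeR adjusted p = 0.206). At E11.5 the XX minus XY difference of 0.66 (edgeR adjusted p = 0.461) became -0.62 without XX E11.5 replicate 1, which held 21 counts against 6 and 2. The change of the sex difference with stage (edgeR adjusted p = 0.0103) was not called without the E11.5 libraries (adjusted p = 0.111).

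Among 7 tested genes known to respond to oestrogen or progesterone, 3 were higher in XX (21.4% of all genes were) and none in XY (20.6%) at E11.5. The median log2 difference there was 0.292. Counts were 2 and 2 at both E12.5 (30.5% and 31.5% of all genes) and E13.5 (32.8% and 33.3%), with medians of 0.319 and 1.37. At E15.5 XX was higher for 2 (34.9% of all genes were) and XY for 4 (34.4%), with a median of -0.903. Igf1, a growth factor, reached 172.3 ± 25.2 CPM in XX E15.5 against 4.90 ± 0.781 CPM in XY E15.5 (log2 5.15, SE 0.253, edgeR adjusted p = 3.1e-13). Greb1, a cofactor of oestrogen receptor alpha and one of its best-known targets, was higher in XY, at 93.3 ± 4.58 against 39.4 ± 2.81 CPM (log2 -1.25, edgeR adjusted p = 1.58e-07).

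Enzymes that make or remove receptor ligands split between the sexes. Of 8 tested at E15.5, 3 were higher in XX (34.9% of all genes were), 3 in XY (34.4%) and 2 were not called. The median log2 difference was -0.0929. XX was higher for 2 (21.4% of all genes were) and XY for 2 (20.6%) at E11.5. The counts were 3 and 2 at E12.5 (30.5% and 31.5% of all genes) and 3 and 3 at E13.5 (32.8% and 33.3%). Hsd17b3, which makes testosterone, was at 500.3 ± 17.4 CPM in XY E15.5 and at 0.315 ± 0.179 CPM in XX (log2 -10.74, SE 0.382, edgeR adjusted p = 3.19e-15). Hsd17b2, which inactivates oestradiol and testosterone, reached 13.1 ± 1.04 CPM in XX E15.5 against 0.142 ± 0.0232 CPM in XY E15.5 (log2 6.48, edgeR adjusted p = 1.8e-07). Hsd11b2, which inactivates glucocorticoids and so keeps them off the mineralocorticoid receptor, was higher in XY at E15.5 (5.21 ± 0.315 against 1.21 ± 0.447 CPM, log2 -2.06, edgeR adjusted p = 4.85e-06).

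Relatives of the receptors followed no single direction. Of 14 tested, 4 were higher in XX (21.4% of all genes were) and 7 in XY (20.6%) at E11.5, with a median of -0.56 in log2. At E15.5, 7 were higher in XX (34.9% of all genes) and 3 in XY (34.4%), with a median of 0.692. Between these stages the counts were 7 and 5 at E12.5 (30.5% and 31.5% of all genes) and 6 and 4 at E13.5 (32.8% and 33.3%). Tshr, the thyrotropin receptor and the closest relative of Fshr and Lhcgr, was higher in XX at all 4 stages, at 21.1 ± 2.59 against 2.06 ± 0.408 CPM at E11.5 and 6.13 ± 0.825 against 0.0941 ± 0.0445 CPM at E15.5. Gper1, a membrane oestrogen receptor, reached 2.56 ± 0.580 CPM in XX E15.5 against 0.244 ± 0.0476 CPM in XY E15.5 (log2 3.36, edgeR adjusted p = 4.28e-06). Paqr5, a membrane progestin receptor, in XY went from 31.9 ± 2.66 CPM at E12.5 to 0.781 ± 0.171 CPM at E15.5, while XX stood at 2.46 ± 0.420 and 4.50 ± 0.775 CPM.

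Nr3c1 was alike in both sexes at E11.5 within the spread of the libraries and then separated. XX libraries held 13.8, 14.7 and 21.0 CPM at E11.5, 11.9, 13.3 and 9.49 CPM at E12.5, then 13.9, 14.6 and 16.5 CPM at E13.5, and 34.9, 32.1 and 42.6 CPM at E15.5. XY libraries held 11.9, 13.3 and 19.8 CPM at E11.5, 4.86, 6.34 and 6.17 CPM at E12.5, then 4.64, 6.77 and 5.07 CPM at E13.5, and 6.59, 7.35 and 7.34 CPM at E15.5. The sexes overlapped at E11.5 and not afterwards, and XX E15.5 was above all other groups.

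The XX minus XY difference in Nr3c1 was 0.13 in log2 at E11.5 (SE 0.196, edgeR adjusted p = 0.615), with values from -0.088 to 0.40 when single libraries were left out. It was 0.997 at E12.5 (SE 0.206, edgeR adjusted p = 0.000264), 1.44 at E13.5 (SE 0.208, edgeR adjusted p = 3.41e-06) and 2.37 at E15.5 (SE 0.209, edgeR adjusted p = 2.12e-09). That change with stage passed the test (edgeR adjusted p = 8.12e-06). A fall in XY came early, 2.60-fold from E11.5 to E12.5 (log2 -1.38, SE 0.204, edgeR adjusted p = 9.02e-06). A rise in XX came late, 2.44-fold from E13.5 to E15.5 (log2 1.29, SE 0.199, edgeR adjusted p = 9.55e-05). The first XX step, a log2 difference of -0.51, just missed the threshold (edgeR adjusted p = 0.052). It was called in 9 of 14 other settings, with DESeq2 at -0.55 (adjusted p = 0.0321) and limma on log2(TPM + 1) at -0.67 (adjusted p = 0.00728), and was -0.30 (edgeR adjusted p = 0.298) without XX E11.5 replicate 3.

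Nr3c2 went up in both sexes. XX libraries held 3, 1 and 3 counts at E11.5 (0.160, 0.0459 and 0.194 CPM), then 0.505, 0.636 and 0.571 CPM at E12.5, and later 1.26, 1.83 and 1.21 CPM at E13.5, and 4.17, 4.33 and 3.21 CPM at E15.5. XY libraries held 0.516, 0.516 and 0.392 CPM at E11.5, 1.07, 1.81 and 1.23 CPM at E12.5, then 1.93, 1.87 and 2.82 CPM at E13.5, and 3.25, 4.15 and 3.16 CPM at E15.5. XY lay above XX without overlap at each stage up to E13.5, and the sexes overlapped at E15.5.

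The XX minus XY difference in Nr3c2 narrowed from -1.86 in log2 at E11.5 (SE 0.43, edgeR adjusted p = 0.00157) through -1.26 at E12.5 (SE 0.316, edgeR adjusted p = 0.00161) and -0.61 at E13.5 (edgeR adjusted p = 0.0728) to 0.14 at E15.5 (edgeR adjusted p = 0.663). The change of this difference with stage had an edgeR adjusted p of 0.00536. At E11.5 the pooled XY to XX ratio was 3.79 (exact 95% interval 1.72 to 9.87). XX rose at every step, by log2 2.12, 1.34 and 1.42 (edgeR adjusted p = 0.00094, 0.00304 and 0.00142). XY rose from E11.5 to E12.5 by log2 1.52 (SE 0.308, edgeR adjusted p = 0.000302), and its later steps were 0.69 and 0.67 (edgeR adjusted p = 0.112 and 0.0973).

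The deposited TPM (counts scaled by transcript length and by library total) gave a weaker picture of Nr3c2. XY E12.5 replicate 2 had a TPM of 1.36 against 0.29 and 0.47 in its partners, though its count of 42 stood beside 23 and 27. The change of the Nr3c2 sex difference with stage was called by neither limma fit (adjusted p = 0.592 on log2(TPM + 1) and 0.602 on log2(TPM + 0.1)). On log2(TPM + 1) limma also did not call the E11.5 and E12.5 sex differences (log2 -0.11 and -0.45) or any XX step. Nr3c2 (chr8:76899442-77245012, plus strand) overlaps a long noncoding RNA and 2 small RNA genes, and whether counting used strand is not given in the sources used here.

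Of 13 tested genes known to respond to glucocorticoids, 4 were higher in XX (21.4% of all genes were) and 2 in XY (20.6%) at E11.5. At E15.5, 5 were higher in XX (34.9% of all genes) and 4 in XY (34.4%). The medians at E11.5 and E15.5 were 0.178 and -0.03 in log2. The counts were 3 and 6 at E12.5 (30.5% and 31.5% of all genes) and 6 and 4 at E13.5 (32.8% and 33.3%), with medians of -0.532 and 0.621. Tsc22d3 (GILZ), a widely used glucocorticoid target, reached 87.1 ± 1.33 CPM in XX E15.5 against 27.1 ± 2.81 CPM in XY E15.5 (log2 1.68, SE 0.106, edgeR adjusted p = 1.15e-11). The metallothionein gene Mt1 was at 185.3 ± 15.0 and 50.6 ± 2.83 CPM (log2 1.87, edgeR adjusted p = 8.93e-10). The clock gene Per1 was higher in XY, at 37.6 ± 3.05 against 4.25 ± 1.04 CPM (log2 -3.16, SE 0.26, edgeR adjusted p = 7.64e-10). Fkbp5, a receptor chaperone and a target, differed little at E15.5 (log2 -0.35, edgeR adjusted p = 0.0293).

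Among 17 chaperones and coregulators of steroid receptors, 4 were higher in XX (21.4% of all genes were) and 4 in XY (20.6%) at E11.5. The median log2 difference there was 0.157. At E12.5 XX was higher for 3 (30.5% of all genes) and XY for 9 (31.5%), with a median of -0.439. At E13.5 the counts were 7 (32.8%) and 4 (33.3%), with a median of 0.104. At E15.5 XX was higher for 9 (34.9% of all genes were) and XY for 4 (34.4%), with a median log2 difference of 0.386. Ncoa1, a coactivator, rose in XX to 71.3 ± 5.92 CPM at E15.5 against 27.1 ± 1.42 CPM in XY (log2 1.40, edgeR adjusted p = 3.56e-09).

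**Figure D4:**
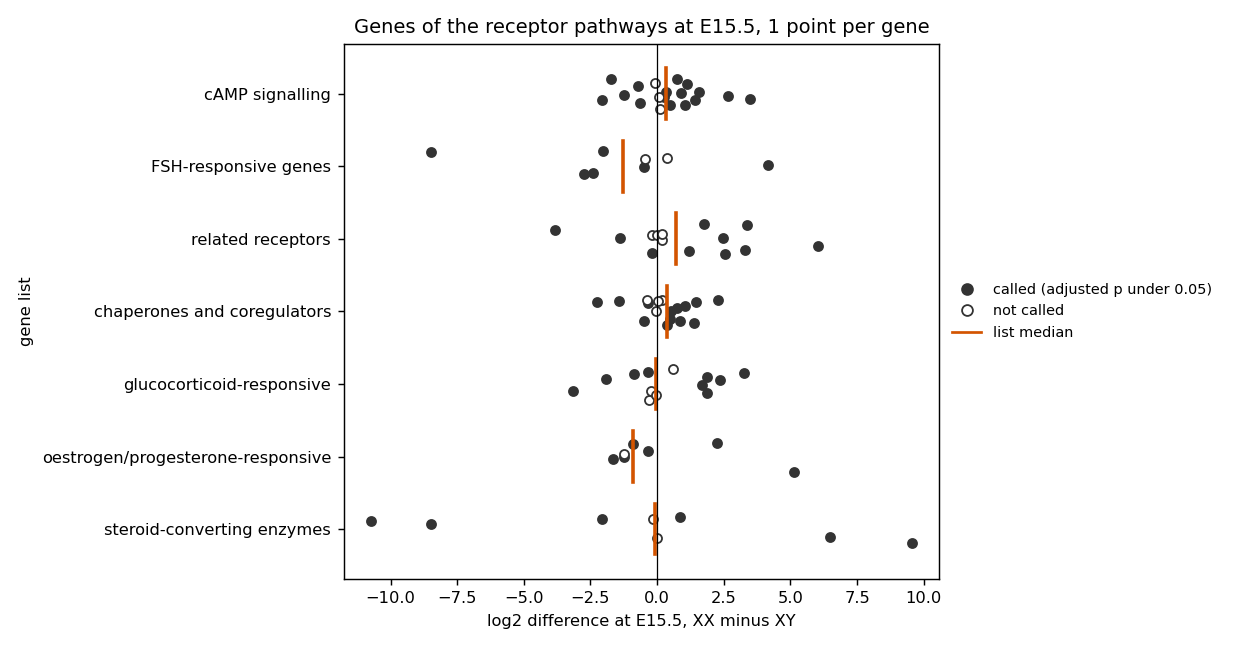
Log2 difference XX minus XY at E15.5 (horizontal axis) of each tested gene of 7 lists, filled where the edgeR adjusted p was under 0.05, with a bar at the median of each list. The FSH-responsive list has its median at -1.27 and the related receptors have theirs at 0.692, and every list holds called genes on both sides of 0. The farthest right point, Srd5a2, has no count in XY E15.5, so its place depends on the prior count of the model.

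Compared with each other per transcript length, the receptors ranked differently in the sexes. At E15.5 in XX, TPM was 17.8 ± 1.64 for Esr1, 16.4 ± 2.17 for Lhcgr and 13.0 ± 1.08 for Nr3c1. The libraries of Esr1 and Lhcgr overlapped, and Nr3c1 overlapped neither Esr1 nor Lhcgr. Nr3c2, Esr2 and Pgr followed at 0.993, 0.433 and 0.24 TPM, and Fshr was listed at 0. At E15.5 in XY, Fshr led with 27.1 ± 0.652 TPM, ahead of Nr3c1 (2.54 ± 0.485), Esr2 (1.23 ± 0.153), Nr3c2 (1.20 ± 0.247), Esr1 (0.767 ± 0.192), Lhcgr (0.737 ± 0.258) and Pgr (0.03). At E11.5 Nr3c1 had the highest mean in both sexes, at 7.88 ± 2.09 TPM in XX and 6.29 ± 2.10 TPM in XY, and in XX it overlapped Esr1 (5.81 ± 2.33 TPM).

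**Figure D5:**
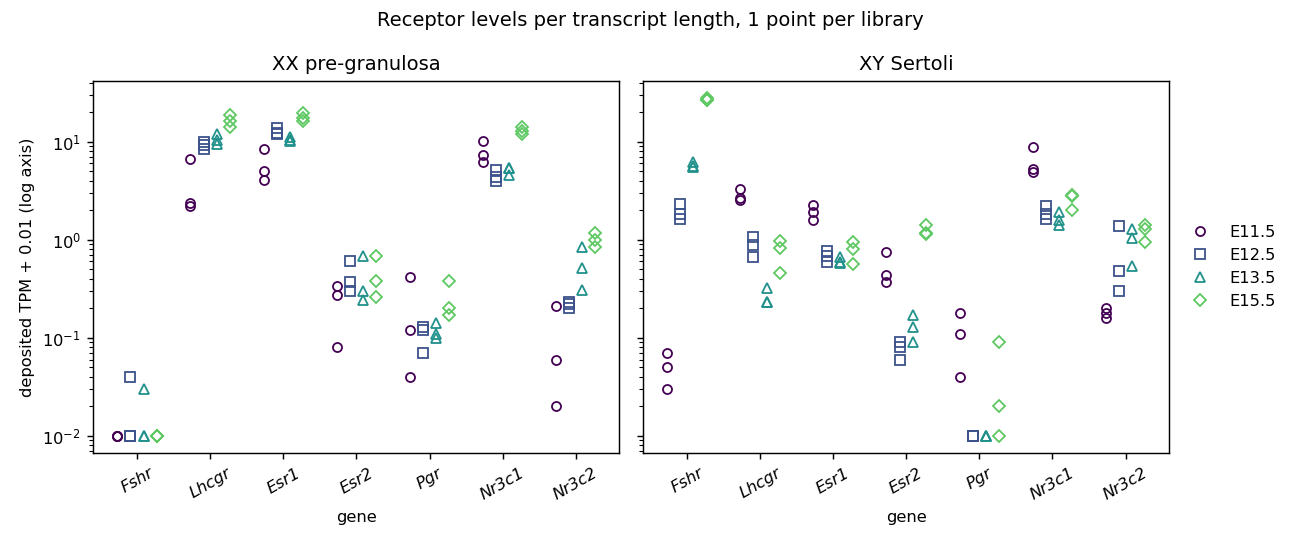
Deposited TPM of the 7 receptors in each library (vertical log axis, 0.01 added so that values of 0 can be drawn), with XX on the left, XY on the right and a marker per stage. In XY the E15.5 Fshr libraries lie at 26.7 to 27.9 TPM, more than any other receptor, and in XX the Esr1, Lhcgr and Nr3c1 libraries lie at the top.

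Over the stages, 4 receptors changed in XX (Lhcgr, Esr1, Nr3c1 and Nr3c2; 74.0% of all genes did) and all 7 changed in XY (70.3% of all genes). From E11.5 to E12.5, 3 receptors rose in XX (34.0% of all genes changed, 16.7% rising), whereas in XY 2 rose and 5 fell (51.9% of all genes changed, 27.1% rising and 24.8% falling). Markers of other cells fell in XY at that step too. All 6 interstitial markers (summed level from 613.7 to 1047 CPM at E11.5 and from 21.6 to 25.8 CPM at E12.5), all 5 mesonephric markers (46.6 to 54.2 and 5.28 to 9.27 CPM) and all 3 tested adrenal-like markers (22.7 to 38.1 CPM, then 0) were called lower, and their part in the falls of the receptors was not tested. From E12.5 to E13.5, Nr3c2 alone rose in XX (31.7% of all genes changed, 14.2% rising), and in XY Fshr rose and Lhcgr fell (16.6% of all genes changed, 8.02% rising and 8.62% falling). From E13.5 to E15.5, 3 rose in XX (Esr1, Nr3c1 and Nr3c2; 25.6% of all genes changed, 12.8% rising) and 3 rose in XY (Fshr, Lhcgr and Esr2; 21.3% of all genes changed, and 1863 of the 16190 tested rose). The interaction test of edgeR called a change of the sex difference with stage for 6 of the 7, all but Fshr (70.1% of all genes). DESeq2 and both limma fits did call Fshr, so its missing call in edgeR does not show that the difference stayed the same.

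The genes whose levels ran most like each receptor over the 24 libraries were picked from 12063 genes by Pearson's r of log2(CPM + 1), as a description with libraries that share sex and stage. Fshr ran with Serpina5 (r = 0.991), Ccl17 (0.99) and Bcan (0.988), which in XY E15.5 stood at 376.4, 80.0 and 138.2 CPM. Lhcgr ran with Lbx2 (0.979) and Tmem176a (0.974), and Esr1 with Sh3d21 (0.985), Ctxn3 (0.984) and Agtr1a (0.984), the angiotensin receptor. Nr3c1 ran with Calcrl (0.969) and Mgp (0.962). Nr3c2 ran with Smpdl3a (0.948), Mgat4b (0.937) and Jtb (0.931). The likeness was weaker for Pgr, with Prss8 (0.913), Met (0.906) and Lad1 (0.904), and for Esr2, with Tex19.1 (0.844), Ccnd2 (0.834) and Pms1 (0.828). Both had low counts, as did Nr3c2.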

How the data were processed

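Polyadenylated RNA of sorted cells was amplified as cDNA with a low-input kit before sequencing, per the labels' protocols. Molecular identifiers are not mentioned there, so intervals and floors cover counting error only. The deposited estimated counts per gene and the deposited TPM values were made by the authors. The build was mm10, per the submitters' processing notes, and the aligner, counter and use of strand are not given in the sources used here. Of the count values, 17.5% were not whole and were rounded.

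Counts were tested with edgeR 4.0.16 (R 4.3.3): filterByExpr kept 16190 of 32040 genes, TMM factors scaled the libraries, and a robust quasi-likelihood fit took a mean per group with 16 residual degrees of freedom. P-values were adjusted by Benjamini-Hochberg over all genes tested and called under 0.05. Adjusted p-values in the report come from this fit unless another tool is named. CPM used TMM-scaled library sizes and is given as mean ± SD of 3 libraries. Folds are ratios of group means. A group with no count was set at 3 counts per library, and where the libraries of a group held 3 counts or fewer each, the ratio of pooled counts is given with an exact 95% interval. Depth ran from 11275251 to 37256881 counts per library. Replicates were checked and none was a copy of another. The correlation of deviations of same-numbered libraries was over 0.1 in all 3 pairs only for XX and XY at E11.5 (0.132 to 0.351).

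Alternatives were DESeq2 size factors, no filter, at least 10 counts in every library, a replicate block, DESeq2 1.42.0, limma 3.58.1 on log2(TPM + 1) and log2(TPM + 0.1), fits restricted to the libraries under comparison, and each library left out in turn. The fit without the 6 E11.5 libraries was added after seeing the data. The script was tested on simulated data. The receptors and gene lists were chosen with earlier results of these data known. Genes named are the receptors, any gene of the lists, and for each receptor the 3 genes with the highest Pearson's r among genes reaching 5 CPM; some genes this rule gives are not reported here. Gene positions are GENCODE M21 (GRCm38), and upstream sequences are RefSeq's (GRCm38.p6). The symbols Tf and Sts of the lists were not matched. Protein sequences were not used here.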

Additional observations from a re-analysis of the deposited data

Results flagged for a closer look

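The difference between XX and XY changed with stage for 6 receptors by the interaction term of the edgeR fit over all genes. The adjusted p was 4.74e-07 for Esr1, whose difference grew from 1.86 to 4.87 in log2, with all 12 XX libraries above the XY libraries of their stage. It was 2.43e-06 for Lhcgr, with differences from 0.60 to 5.71, and 8.12e-06 for Nr3c1, with differences from 0.13 to 2.37. It was 6.99e-05 for Esr2, the receptor called in both directions, at 2.51 in log2 at E12.5 and -1.502 at E15.5. It was 0.0103 for Pgr and 0.00536 for Nr3c2, whose change neither limma fit called. Pgr and Nr3c2 had groups under 1 CPM in their means, as did Esr2, and Lhcgr in XY. Groups held 3 libraries, so outlying libraries were not tested.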

How the results depend on the processing

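The receptors called between the sexes were 22 of 28 tests and ranged from 21 to 22 when any library was left out. Steps between stages gave 19 of 42 calls (17 to 20), changes over stages in XX 4 of 7 (4 to 5), in XY 7 of 7 (7 with each library left out) and the interaction 6 of 7 (6 with each left out). Requiring at least 10 counts in every library left only Esr1 and Nr3c1 to test, and the counts became 7 of 8, 6 of 12, 2 of 2, 2 of 2 and 2 of 2, by that construction. The labels do not say what a replicate number marks, and in 9 of 10 comparisons the numbers did not pair the samples: over 30 same-numbered pairs the correlation of deviations ran from -0.193 to 0.351, and 10 of 24 libraries correlated best with their own number. With the replicate block the counts were 21, 20, 4, 7 and 6. The block ended the Esr2 call between the sexes at E11.5 (-1.29, edgeR adjusted p = 0.0569), made that of Nr3c1 from E11.5 to E12.5 in XX (-0.49, adjusted p = 0.0439) and changed no other call of a receptor. DESeq2 gave 21 of 28, 20 of 41, 4, 7 and 7. Limma gave 15 and 17 of 24 calls between the sexes on log2(TPM + 1) and log2(TPM + 0.1). Without the E11.5 libraries they were 19 of 21, 13 of 28, 5, 5 and 5 of 7.

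Signs reversed only in differences that were not called, and the cause was not tested. In limma on log2(TPM + 1) and log2(TPM + 0.1), the XX E13.5 minus E12.5 difference was -0.24 and -0.26 for Esr1 and -0.022 and -0.10 for Esr2, and the XX minus XY difference of Nr3c2 at E15.5 was -0.14 and -0.25. With single libraries left out, the XX minus XY difference at E11.5 ran from -0.11 to 0.89 for Lhcgr, from -0.62 to 1.07 for Pgr and from -0.088 to 0.40 for Nr3c1. Likewise the XX E13.5 minus E12.5 difference of Esr2 ran from -0.41 to 0.54, its XX E15.5 minus E13.5 difference from -0.43 to 0.65, the XX E12.5 minus E11.5 difference of Pgr from -1.24 to 0.45, and the XY E13.5 minus E12.5 difference of Nr3c1 from -0.23 to 0.052.

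Counts over all genes moved by over 1.5 times when only the compared libraries were fitted, from 6803 to 2718 for XX minus XY at E11.5, from 5505 to 1176 for the first XX step, from 2694 to 4317 for the second XY step and from 3448 to 6111 for the third. Without the E11.5 libraries the second XY step gave 4470 and the third 5187. The second XY step fell to 1503, 1626 and 1606 without XY E12.5 replicate 2, XY E13.5 replicate 2 or XY E13.5 replicate 3, and the third XX step from 4144 to 2726 and 2540 without XX E13.5 replicate 1 or XX E15.5 replicate 3. Depth limits Pgr, Esr2, Nr3c2, XX Fshr and XY Lhcgr, where 3 counts equal 0.0774 to 0.26 CPM.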
